A study of Mus musculus with 5 samples.

Results

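Of 10 endoplasmic reticulum (ER) stress genes measured in prostate tumors of castrated and intact TripleTg mice, 0 passed the test for a difference between the groups after adjustment over all genes, where 0% of all genes passed, and for 4 of them all castrated samples lay above the intact ones in CPM, as they did for 17.0% of all genes tested. In TPM this was so for Hsp90b1, Sdf2l1, Creld2 and Ddit3. The share of all genes on that scale was not computed, so no comparison is drawn from it. The genes, Hspa5, Hsp90b1, Xbp1, Atf6, Ern1, Ddit3, Dnajb9, Pdia4, Sdf2l1 and Creld2, encode sensors and transcription factors of the unfolded protein response and chaperones of the secretory pathway. They were chosen by symbol, and all 10 of them were found among the 24527 genes of the count table. Tumor tissue had been checked under the microscope and was sequenced in bulk from 3 castrated and 2 intact mice, each a separate animal. Every mouse, controls included, carried the human HGF transgene hHGFtg, which is expressed ubiquitously, together with the alleles H11hMET/+ and Ctnnb1L(Ex3)/+ and the Cre transgene PBCre4, on a mixed C57BL/6 and C3H SCID background. Cre is driven by the probasin promoter, which is active in prostatic epithelium and responds to androgen, and it switches on human MET and a stabilized β-catenin. Castration was performed at 4 months of age, and castrated and intact mice were all analyzed at 8 months, so that the intact mice serve as age-matched controls.

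The unfolded protein response adjusts the folding capacity of the ER to the load of newly made secretory and membrane proteins. Unfolded proteins are sensed in the ER membrane by IRE1α (Ern1), ATF6 (Atf6) and PERK (Eif2ak3). IRE1α splices the messenger RNA of Xbp1 into a form that encodes an active transcription factor, ATF6 is cut in the Golgi to release one, and PERK slows translation and favours the production of ATF4, which acts on Ddit3. Glands that secrete heavily, such as the prostate, keep a large ER and high levels of its chaperones. Counts per gene do not separate the spliced and unspliced forms of Xbp1, nor do they report cleavage of ATF6.

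Castrated replicates 1, 2 and 3 held 28015507, 18951782 and 20492061 counts, and the intact replicates 21560355 and 22853501. The member with the fewest reads, Ddit3, still had 269 counts in its lowest sample, and the common dispersion between mice was 0.238, so that the spread between mice and not counting error set the precision. The epithelial keratin gene Krt8 was read at 875, 777 and 1144 CPM (counts scaled to library size with TMM factors) in the castrated samples and at 1155 and 661 CPM in the intact ones, in the order of their replicate numbers,, and the epithelial adhesion gene Epcam at 511 CPM or more in each. Pbsn, the probasin gene of secretory prostate epithelium, was at 5.21 CPM or less in every sample. Msmb had 0 counts in all 5 samples, which allows up to 0.158 CPM in the shallowest library, counting error only.

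Intact replicate 2 stood apart from the other samples in prostate secretory transcripts. Tgm4, which encodes a secreted prostate transglutaminase, reached 1347 CPM there and 0.419 CPM or less elsewhere. With 2 intact mice, the members and the medians of the gene groups are therefore also given with 1 or the other intact library left out where this moved them.

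Members whose promoters contain an ER stress response element are shown first, because this element is the known binding motif of ATF6 and XBP1 with the factor NF-Y. The motif was searched as CCAAT, then 9 bases of any kind, then CCACG, on both strands of the RefSeq promoters of build GRCm38.p6, each running from 250 bases before to 50 bases after a gene's start. It was present in 39 of 32851 promoters (0.119%) and in 3 of the 9 members that have a promoter in this set, namely Hspa5, Hsp90b1 and Creld2. The separate pieces are common, with CCAAT in 37.4% and CCACG in 32.8% of all promoters, and each was found in 7 of the 9 members. The 4 matches are given 5′ to 3′ on the strand of the gene, with 20 bases on each side, and capitals mark the CCAAT and CCACG pieces or, where the motif lies on the opposite strand, their complements CGTGG and ATTGG.
Hspa5, chr2:34772005-34772063, plus strand, motif 65 to 47 bases before the start: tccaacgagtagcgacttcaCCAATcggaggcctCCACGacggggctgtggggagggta
Hsp90b1, chr10:86705618-86705676, minus strand, motif 212 to 194 bases before the start: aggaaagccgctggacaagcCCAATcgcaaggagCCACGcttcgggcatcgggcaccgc
Hsp90b1, chr10:86705513-86705571, minus strand, motif 107 to 89 bases before the start: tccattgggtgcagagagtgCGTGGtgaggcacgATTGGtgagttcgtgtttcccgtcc
Creld2, chr15:88819500-88819558, plus strand, motif 126 to 108 bases before the start: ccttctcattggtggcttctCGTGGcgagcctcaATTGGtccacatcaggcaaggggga
A match describes these letters and is neither a shown binding site nor a cause of any value given here.

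The levels of the members relative to each other were compared as TPM, which divides counts by gene length and scales each library to a fixed sum. Hspa5, which encodes the ER chaperone BiP, was the most abundant by median, at 876 TPM with a range of 576 to 925 over the 5 samples. Hsp90b1, encoding the ER chaperone GRP94, followed at 810 TPM (471 to 917), and the transcription factor gene Xbp1 at 417 TPM (226 to 665). The disulfide isomerase gene Pdia4 had a median of 197 TPM (135 to 257), and Dnajb9, encoding the BiP co-chaperone ERdj4, had 128 TPM (102 to 155). Lower down were Ern1 at 73.8 TPM (61.8 to 89.0), Sdf2l1 at 71.4 TPM (32.1 to 94.0) and Creld2 at 68.4 TPM (49.5 to 108), followed by Atf6 at 40.1 TPM (38.0 to 47.9) and Ddit3 at 35.6 TPM (28.7 to 48.2).

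Hspa5 was above Hsp90b1 in 4 of 5 samples, castrated replicate 2 being the exception. Neighbours in this order had overlapping ranges over the samples, except for Dnajb9 and Ern1 and for Creld2 and Atf6. By the median TPM, Hspa5 stood above 99.1% of the 14612 genes tested and Ddit3 above 67.4%. The TPM scale of intact replicate 2 was lower, with a median over all tested genes of 16.4 TPM against 20.8 to 21.5 TPM in the other samples, so CPM were used to compare the groups.

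**Figure D1:**
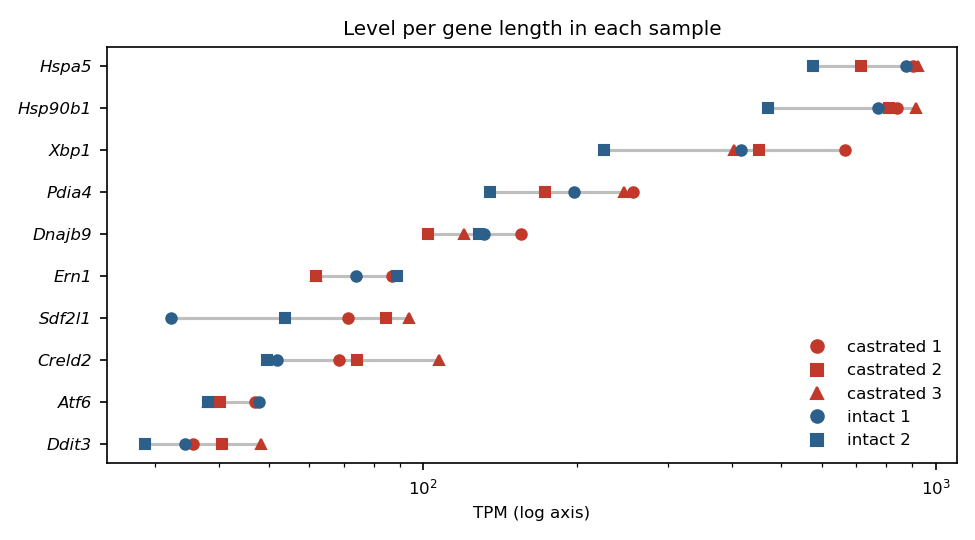
Level of each ER stress gene in TPM on a logarithmic axis, 1 point per sample, with the genes ordered by median. Hspa5 and Hsp90b1 lie highest and Atf6 and Ddit3 lowest, and the intact points that lie low for several genes are from intact replicate 2.

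To ask whether castration changed these transcripts, castrated and intact samples were compared with edgeR's quasi-likelihood test across 14612 genes. None of the 10 members was called at a Benjamini-Hochberg adjusted p under 0.05 with a log2 fold change beyond 1 in either direction, and this was also the case for all genes, of which 0% were called. Their smallest adjusted p from edgeR was 0.40, for Creld2, and the smallest among all genes was 0.289. At an unadjusted p under 0.05 with the same fold change, 7.66% of all genes were higher and 3.26% lower in castrated samples, and again 0 members passed in either direction. At the level of single samples, 4 of the 10 members (Hsp90b1, Xbp1, Sdf2l1 and Creld2) were higher in every castrated than in every intact sample, a pattern that 17.0% of all genes showed, and 0 members were lower in every castrated sample, against 16.1% of all genes. The log2 fold change was above 0 for 7 members and below 0 for 3, with a median of 0.30, beside a median of -0.03 and a middle range of -0.37 to 0.45 over all tested genes.

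**Figure D2:**
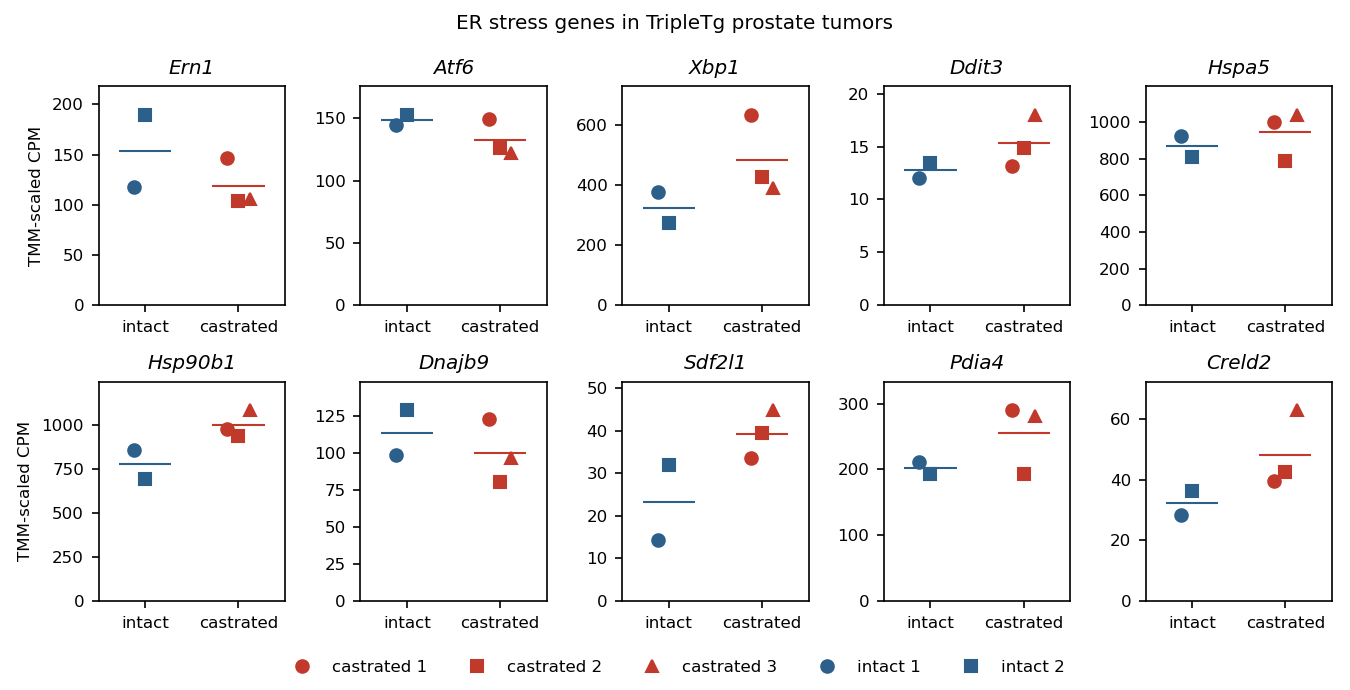
TMM-scaled CPM of each of the 10 ER stress genes in castrated and intact samples, 1 point per sample, with horizontal lines at the group means and each panel on its own axis. Hsp90b1, Xbp1, Sdf2l1 and Creld2 have every castrated point above both intact points, and the groups overlap for the other 6 genes.

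Among the sensors, both Atf6 and Ern1 had lower mean levels in castrated tumors. Atf6 (chr1:170704457-170867771, minus strand, coordinates of build mm10 for this and all other genes) was read at 149, 126 and 122 CPM in castrated and at 144 and 153 CPM in intact samples. It was the steadiest of the members, with its highest sample 1.25 times its lowest, and castrated replicate 1 lay between the intact values. The log2 fold change was -0.17 (SE 0.18, 95% interval -0.63 to 0.29) and ran from -0.26 to -0.10 with 1 library left out. Ern1 (chr11:106397620-106487796, minus strand) was read at 146, 103 and 105 CPM in castrated and at 118 and 190 CPM in intact samples. Intact replicate 2 was the highest sample and the groups overlapped. Its log2 fold change of -0.38 (SE 0.29, 95% interval -1.11 to 0.35) was -0.04 without intact replicate 2, -0.66 without intact replicate 1 and -0.56 without castrated replicate 1.

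Of the transcription factor genes, Xbp1 (chr11:5520641-5525993, plus strand) had the larger difference. It was read at 635, 429 and 391 CPM in castrated and at 378 and 273 CPM in intact samples. All castrated samples were above the intact ones, but castrated replicates 2 and 3 lay close to intact replicate 1 and the highest value came from castrated replicate 1. In TPM the groups overlapped, with castrated replicate 3 at 404 TPM under intact replicate 1 at 417 TPM. The log2 fold change was 0.58 (SE 0.32, 95% interval -0.24 to 1.39). It was 0.33 without castrated replicate 1, 0.32 without intact replicate 2 and 0.85 without intact replicate 1. Ddit3 (chr10:127290793-127296288, plus strand), which encodes the proapoptotic factor CHOP downstream of ATF4, was read at 13.2, 14.9 and 18.0 CPM in castrated and at 12.1 and 13.4 CPM in intact samples. Castrated replicate 1 fell below intact replicate 2 on this scale but not in TPM. The log2 fold change was 0.27 (SE 0.28, 95% interval -0.45 to 0.98), or 0.14 without castrated replicate 3 and 0.37 without castrated replicate 1. Exons of Ddit3 share 68 bases with the gene Mars on the other strand, and since it is not stated whether counting used the strand, reads from this stretch cannot be assigned with certainty.

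Of the 2 major chaperones, Hspa5 overlapped between the groups and Hsp90b1 did not. Hspa5 (chr2:34772090-34776529, plus strand) was read at 1001, 790 and 1041 CPM in castrated and at 925 and 811 CPM in intact samples. Castrated replicate 2 was the lowest sample and castrated replicate 3 the highest, so the groups overlapped. The means were 944 ± 135 CPM (SD, n = 3) and 868 ± 81.1 CPM (SD, n = 2). The log2 fold change of 0.12 (SE 0.30, 95% interval -0.63 to 0.87) turned to -0.014 without intact replicate 2 and was 0.24 without intact replicate 1. Hsp90b1 (chr10:86690841-86705444, minus strand) was read at 980, 938 and 1084 CPM in castrated and at 859 and 696 CPM in intact samples. Each castrated sample was above both intact ones. The log2 fold change was 0.36 (SE 0.29, 95% interval -0.36 to 1.09), or 0.18 without intact replicate 2 and 0.54 without intact replicate 1. Hsp90b1 exons overlap 415 bases of the antisense pseudogene 1810014B01Rik, which had 567 counts over all samples against 14980 or more per sample for Hsp90b1.

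Of the co-chaperones, Sdf2l1 had the largest difference of any member, though not without intact replicate 1, and Dnajb9 one of the smaller ones. Sdf2l1 (chr16:17130138-17132383, minus strand), whose product works with ER-resident J-domain proteins, was read at 33.6, 39.6 and 44.8 CPM in castrated and at 14.4 and 32.0 CPM in intact samples. Intact replicate 1 was far below the rest, while intact replicate 2 lay just under castrated replicate 1. The means were 39.3 ± 5.61 CPM (SD, n = 3) and 23.2 ± 12.4 CPM (SD, n = 2), and edgeR's log2 fold change of 0.76 (SE 0.39, 95% interval -0.23 to 1.75) had an adjusted p of 0.409. It depended on which intact mouse was kept, being 1.41 without intact replicate 2, where Sdf2l1 and 6.34% of all genes were higher past the unadjusted threshold (adjusted p = 0.327, edgeR), and 0.32 without intact replicate 1. Dnajb9 (chr12:44205897-44210068, minus strand) was read at 123, 80.6 and 96.6 CPM in castrated and at 99.0 and 129 CPM in intact samples. The groups overlapped, and the log2 fold change of -0.19 (SE 0.25, 95% interval -0.83 to 0.45) ran from -0.36 without castrated replicate 1 to -0.03 without intact replicate 2.

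Of the folding enzymes and client binders, Creld2 (chr15:88819646-88826681, plus strand), a secreted and ER-resident protein with disulfide isomerase activity, was read at 39.5, 42.4 and 62.8 CPM in castrated and at 28.5 and 36.2 CPM in intact samples. All castrated samples were above the intact ones, with castrated replicate 3 the highest by a wide margin. The log2 fold change was 0.58 (SE 0.29, 95% interval -0.15 to 1.31), with an adjusted p of 0.40 from edgeR. It was 0.35 without castrated replicate 3, 0.44 without intact replicate 1 and 0.72 without intact replicate 2. Pdia4 (chr6:47796141-47813512, minus strand) was read at 290, 193 and 282 CPM in castrated and at 211 and 192 CPM in intact samples. Castrated replicate 2 was level with intact replicate 2 and the groups overlapped, with a log2 fold change of 0.34 (SE 0.25, 95% interval -0.30 to 0.97) that ran from 0.23 to 0.51 with 1 library left out.

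The members differed in which sample was highest or lowest. Intact replicate 2 was the highest sample for Atf6, Ern1 and Dnajb9 and the lowest for Hsp90b1, Xbp1 and Pdia4. The lowest was intact replicate 1 for Ddit3, Sdf2l1 and Creld2 and castrated replicate 2 for Hspa5. Atf6, Ern1 and Dnajb9 are the 3 genes with a log2 fold change below 0. A highest value in an intact sample is partly built into that sign, so nothing is drawn from it. The CPM of the 10 genes summed to 3410, 2757 and 3247 in castrated and to 2790 and 2526 in intact samples, so that castrated replicate 2 lay below intact replicate 1. The genes that followed Hspa5 most closely over the 5 samples, by distance of their centred log2 CPM among 6634 well expressed genes, were Ascc2 (0.097), Dnpep (0.12), Rexo2 (0.14) and Zdhhc8 (0.15). Of the members ranked, Pdia4 was the nearest at rank 59 and Hsp90b1 came at rank 220. Ddit3 and Sdf2l1 were not among the well expressed genes and were not ranked. Hspa5 itself varied by 1.32 times between its extremes.

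**Figure D3:**
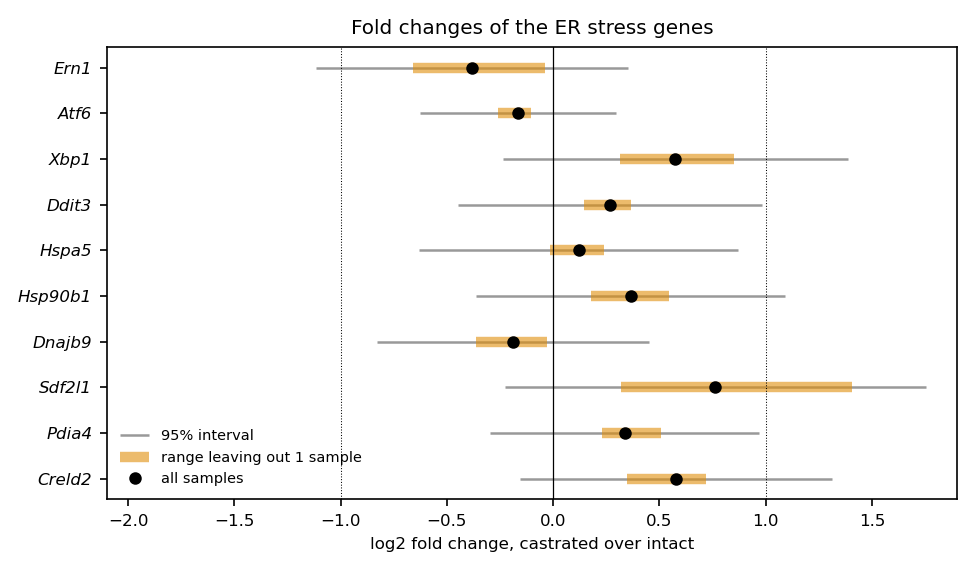
Log2 fold change of each ER stress gene, castrated over intact, with its 95% interval from edgeR's quasi-likelihood test as a line and the range with each library left out in turn as a bar. Dotted lines mark the fold change threshold of 1 in either direction. All intervals span 0, Hspa5 turns below 0 without intact replicate 2, and Sdf2l1 runs from 0.32 to 1.41.

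A wider list of 80 ER pathway genes, of which 78 were tested, was examined by role. None was called after adjustment by edgeR's quasi-likelihood test, while DESeq2 and the likelihood ratio test each called 1, Ero1lb, beside 6.77% and 2.53% of all genes. Of the 78, 35 had a log2 fold change above 0 and 43 below, and the median was -0.02, or 0.10 without intact replicate 1 and -0.14 without intact replicate 2. At an unadjusted p under 0.05 with a log2 fold change beyond 1, 2 were higher and 1 was lower in castrated samples, against 7.66% and 3.26% of all genes. Every castrated sample was above both intact samples for 9 of the 78 and below them for 6, against 17.0% and 16.1% of all genes.

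Among the tested genes of this list, the one with the largest difference was Ero1lb, an oxidase that hands disulfide bonds to protein disulfide isomerase. It was read at 33.0, 51.9 and 47.9 CPM in castrated and at 9.37 and 8.97 CPM in intact samples, with a wide gap between the groups. Its log2 fold change of 2.27 (SE 0.30, adjusted p = 0.289, edgeR) stayed between 2.15 and 2.44 with any library left out and passed the unadjusted threshold each time. Wfs1, an ER membrane protein that restrains stress signaling, was read at 38.5, 156 and 90.3 CPM against 27.4 and 26.9 CPM, with castrated replicate 1 near the intact level. Its log2 fold change was 1.81 (SE 0.60, adjusted p = 0.303, edgeR), from 1.25 to 2.18 with 1 library left out, and it passed the unadjusted threshold only without castrated replicate 1, 1 of 5 cases. Sec61g, a subunit of the translocation channel, was lower in castrated samples at the unadjusted threshold, at 85.4, 55.3 and 63.8 CPM against 107 and 178 CPM, a log2 fold change of -1.06 (SE 0.31, adjusted p = 0.294, edgeR). With 1 library left out it ran from -1.37 to -0.69 and passed the unadjusted threshold in 2 of 5 cases, not without intact replicate 2 or castrated replicate 2 or 3.

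By role, ER-associated degradation had the highest median log2 fold change, 0.23, with 11 of 17 genes above 0, but the median was 0.04 without intact replicate 2 and 0.31 without intact replicate 1. Every castrated sample was above both intact samples for 4 of the 17, against 17.0% of all genes. These included Vcp, the ATPase that extracts proteins from the ER membrane, and Sel1l, the partner of the ligase HRD1, each with a log2 fold change of 0.64. The highest value in this role belonged to Derl3 at 1.95, or 3.64 without intact replicate 2. Its groups overlapped, at 1.47, 6.76 and 9.31 CPM against 0.448 and 2.56 CPM. The lowest value belonged to Erlec1 at -0.27, or -0.44 without intact replicate 2. Translocation and signal peptide processing had the lowest median, -0.21, with 12 of 15 genes below 0. It was -0.11 without intact replicate 1 and -0.20 without intact replicate 2, where it was no longer the lowest (PERK branch, -0.53). Every castrated sample was below both intact ones for 3 of the 15 translocation and processing genes, against 16.1% of all genes. These included Sec61g and the translocon-associated Ssr4 (-0.89, or -0.55 without intact replicate 2). The highest in this role was Srprb at 0.16, but without intact replicate 2 it was -0.13 and Spcs3 was the highest at 0.35.

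The remaining roles had medians from -0.15 to 0.08, and each was above 0 without intact replicate 1 and below 0 without intact replicate 2. In the PERK branch the median was -0.15 (0.14 and -0.53 without these libraries, in this order). The lowest was Eif2s1, which encodes the eIF2α substrate of PERK, at -0.66. The highest was the phosphatase subunit gene Ppp1r15a at 0.09, or -0.17 without intact replicate 2. The other sensors and ER-anchored transcription factors had a median of 0.02 (0.16 and -0.06), with Mbtps2, a protease that cuts ATF6, lowest at -0.55. Without intact replicate 2, Mbtps2 was at -0.89 and Creb3l1 was the lowest at -1.26. Creb3l1 was at 1.51 without intact replicate 1. Other chaperones had a median of -0.03 (0.07 and -0.21). Their highest was the prolyl isomerase gene Fkbp14 at 0.30, or -0.24 without intact replicate 2. Their lowest was Dnajc10 at -1.57, or -0.21 without intact replicate 2. Dnajc10 was read at 1246 CPM in that sample and at 202 to 339 CPM in the others. Disulfide isomerases and oxidases had a median of -0.13 (0.09 and -0.30), with Ero1l lowest at -0.48, or -1.03 without intact replicate 2. COPII vesicle export had a median of 0.08 (0.23 and -0.07), with Sar1b lowest at -0.47. The coat subunit gene Sec24d was highest there at 0.57, or 0.34 without intact replicate 2.

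In 2 related stress programs edgeR's quasi-likelihood test called no gene, whereas DESeq2 called 1, Slc7a11, beside 6.77% of all genes. Among 18 targets of ATF4 the median log2 fold change was -0.35, but its sign rested on 1 library, as it was 0.62 without intact replicate 1 and -0.70 without intact replicate 2. Of these targets, 1 gene was higher and 1 lower past the unadjusted threshold, against 7.66% and 3.26% of all genes. The higher was Sesn2, a stress-inducible inhibitor of mTORC1 signaling, at 1.17 (SE 0.38, adjusted p = 0.301, edgeR), and the lower was Slc7a11, the cystine transporter, at -1.48 (SE 0.40, adjusted p = 0.290, edgeR). With 1 library left out, Sesn2 passed the unadjusted threshold in 1 of 5 cases (without castrated replicate 3) and Slc7a11 in 4 of 5 (not without intact replicate 1). Among 17 heat shock genes that act outside the ER, in the cytosol or, for Hspd1 and Hspe1, in mitochondria, the median was -0.10. The mitochondrial co-chaperonin gene Hspe1 was the lowest at -1.04 (SE 0.31, adjusted p = 0.297, edgeR) and passed the unadjusted threshold in 2 of 5 cases with 1 library left out, not without intact replicate 2 or castrated replicate 2 or 3. The stress-inducible Hspa1a was the highest at 1.29, with overlapping groups.

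**Figure D4:**
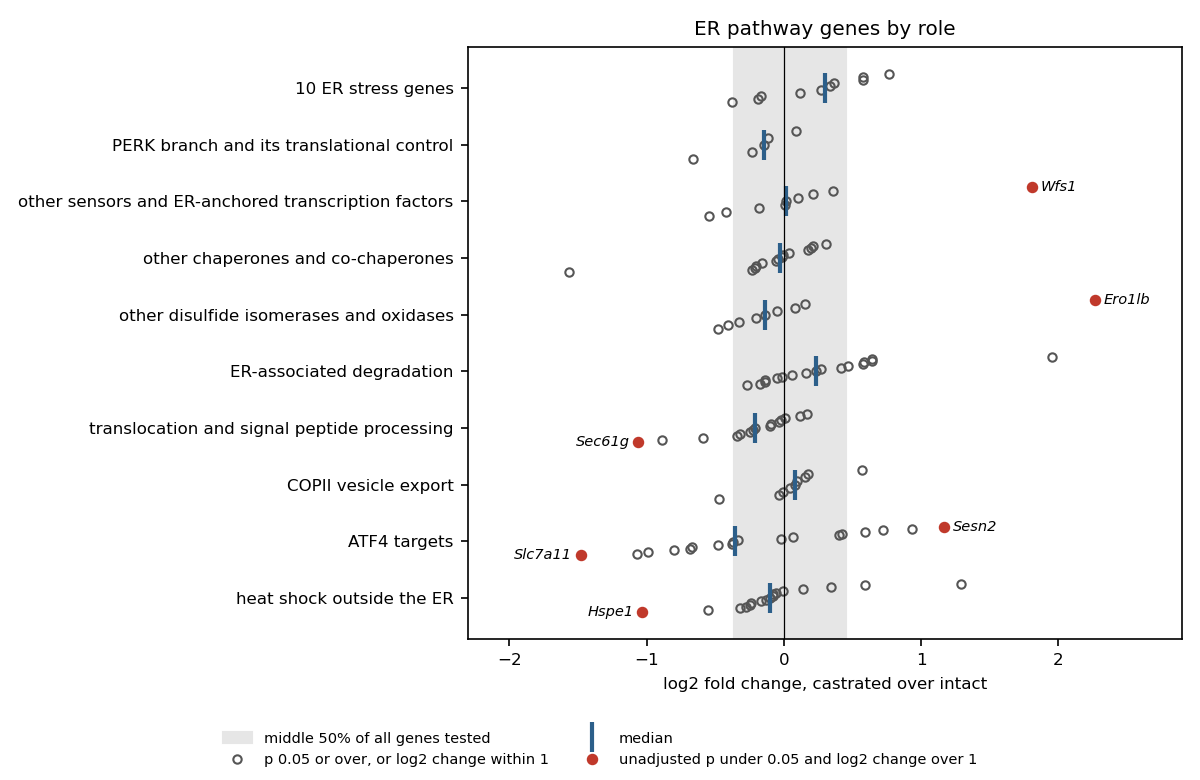
Log2 fold change of each tested gene, castrated over intact, for the 10 ER stress genes, the other ER pathway genes by role, ATF4 targets and heat shock genes outside the ER, with the median of each list and the middle range of all tested genes (-0.37 to 0.45) in gray. Filled points passed an unadjusted p under 0.05 with a log2 fold change beyond 1, and none of the 10 members is among them.

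Transcripts that mark several other cell types were at different levels in the groups, and in bulk tissue fewer cells of a type and less RNA per cell cannot be told apart. Plasma cells are relevant here because they secrete antibody and depend on Xbp1. Their joining chain gene Jchain was read at 319, 1517 and 1225 CPM in castrated and at 56.2 and 18.7 CPM in intact samples. At the unadjusted threshold, 5 of the 8 plasma cell markers were higher in castrated samples, against 7.66% of all genes. The 8 markers summed to 1514, 2215 and 1720 CPM in castrated and to 1318 and 320 CPM in intact samples, with Sdc1, which epithelium also expresses, the most abundant on average. For Prdm1 and Fkbp11 all castrated values lay below the intact ones, as they did for 16.1% of all genes. Xbp1 was highest in castrated replicate 1, where Jchain was lowest among the castrated samples.

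Macrophage markers summed to 2597, 7327 and 2936 CPM in castrated and 1091 and 1661 CPM in intact samples. For 8 of 8 of them every castrated sample was above both intact ones, against 17.0% of all genes. Adipocyte markers summed to 203, 2316 and 1480 CPM against 79.0 and 272 CPM, so that castrated replicate 1 was low. All 6 smooth muscle markers were higher in castrated samples at the unadjusted threshold, against 7.66% of all genes. So were 3 of the 3 neuroendocrine markers tested and 3 of the 7 fibroblast markers. All 6 cycling cell markers were lower in castrated samples at the unadjusted threshold, against 3.26% of all genes. They summed to 55.5, 77.4 and 104 CPM against 247 and 333 CPM. Epithelial markers summed to 4307, 3957 and 4887 CPM against 6287 and 4418 CPM. The part of these shifts in the values of the ER stress genes was not tested.

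**Figure D5:**
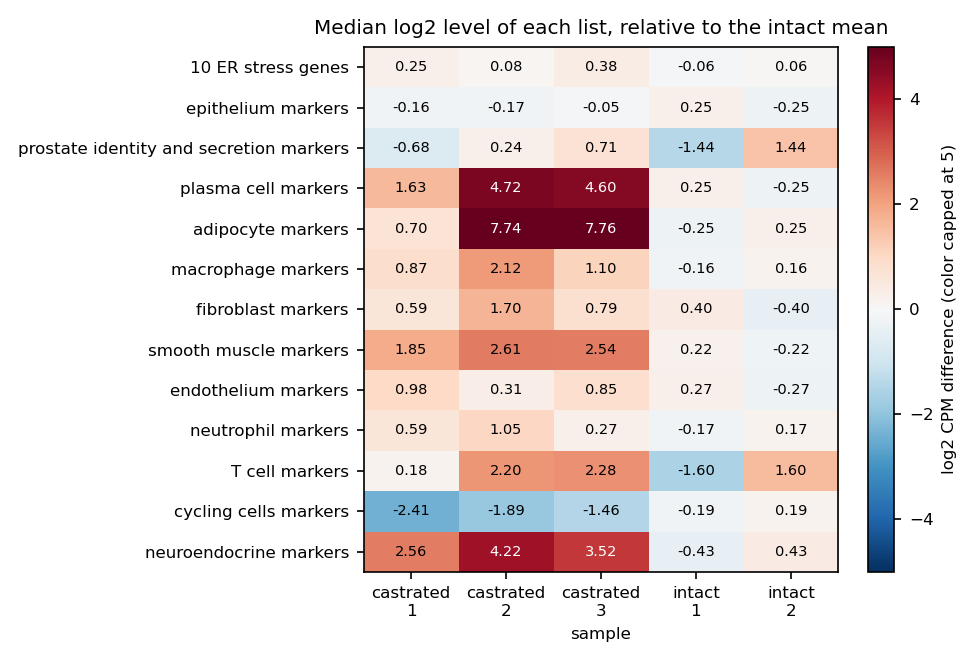
Median log2 CPM of the 10 ER stress genes and of each list of cell type markers in each sample, relative to the mean of the intact samples, with the color scale capped at 5. The ER stress genes stay between -0.06 and 0.38, whereas plasma cell markers reach 4.72 and adipocyte markers 7.76 in castrated samples. Cfd and Lep had 0 counts in both intact samples, and Adipoq, Plin1 and Cidec had 2 or fewer. The adipocyte value therefore rests on intact levels near 0. The better detected Pparg, Fabp4 and Lpl had log2 fold changes, castrated over intact, of 0.66, 2.15 and 2.89.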

How the data were processed

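Bulk RNA-seq of prostate tumor tissue was available for 3 castrated and 2 intact TripleTg mice, grouped by the condition in their labels. Per the study's methods and the submitters' processing notes, the authors depleted ribosomal RNA and used Trimmomatic 0.39 for trimming, STAR 2.7.9 for alignment of read pairs to mm10 and HTSeq 2.0.2 for counting per gene. The deposited values are raw counts for 24527 genes, and a deposited gene length in kilobases was used only for TPM. The strand setting of the counting is not given in the sources used here.

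Counts were analyzed in R 4.3.3 with edgeR 4.0.16 (quasi-likelihood F-test, TMM factors 0.944 to 1.036). The 14612 genes that exceeded a CPM of 1 in 2 or more samples were tested, and p-values were adjusted by Benjamini-Hochberg over all of them. CPM are TMM-scaled, and the SE was derived from the F statistic and the log2 fold change. A gene was called at an adjusted p under 0.05 and a log2 fold change beyond 1. Replicates were distinct libraries (chi-square per gene of 134 or more for each pair). With 2 intact mice, p-values rest on few samples.

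The members and the gene lists were chosen with earlier results of these data known. Named were all members, the genes with the highest and lowest log2 fold change of each role or list, those past the unadjusted threshold, the leading or undetected markers and the 5 tested genes nearest to Hspa5. Others named were chosen after their values were seen. Alternatives were DESeq2 1.42.0, limma 3.58.1 (voom, or log2(TPM + 1)), the likelihood ratio test, other scalings and filters, a replicate block and leaving out each library. The older quasi-likelihood fit of edgeR was added after seeing the data. The procedures were tested on simulated data. Promoters are from RefSeq, and gene overlaps from GENCODE. The other experiments of the study were not analysed here, and some genes that the naming rule covers are not reported here.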

Additional observations from a re-analysis of the deposited data

How the results depend on the processing

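Under every setting run, 0 members were called, and in 159 of 160 refits of single members the direction and the side of the adjusted threshold were those reported. The exception was Hspa5, at -0.014 without intact replicate 2 and up to 0.24 with another library left out. Ern1 at -0.04 and Dnajb9 at -0.03, both without intact replicate 2, were counted as unchanged in direction. The refits share the same libraries, and most settings called 0 of all genes, so the side of the threshold says little. Without intact replicate 2, 1 member (Sdf2l1, at 1.41) was also higher past the unadjusted threshold with the fold change, as were 6.34% of all genes. The replicate block gave 0.35 for Creld2, 0.14 for Ddit3 and 0.04 for Hspa5 in place of 0.58, 0.27 and 0.12. It raised Xbp1 from 0.58 to 0.70. With log2(TPM + 1) the values were 0.25 for Hspa5, 0.69 for Xbp1, 0.98 for Sdf2l1, -0.22 for Ern1, -0.04 for Atf6 and -0.06 for Dnajb9. The members' median, a log2 fold change of 0.30, was 0.18 with a replicate block and 0.20 to 0.36 with 1 library left out. With log2(TPM + 1) it was 0.41, but the median of all genes then moved from -0.03 to 0.12. ER pathway genes past the unadjusted threshold, 2 higher and 1 lower, were 3 higher with no filter, 1 higher with limma voom and with the replicate block, and 1 to 4 higher with 1 library left out. Those lower were 2 with DESeq2, the likelihood ratio test and no filter, 0 with log2(TPM + 1) and the replicate block, and 0 to 4 with 1 library left out. Over all genes, 0 were called by edgeR's quasi-likelihood test, 2195 had an unadjusted p under 0.05, DESeq2 called 989 and the likelihood ratio test 369, and leaving out 1 library gave 0 to 1 (1 without intact replicate 1). Same-numbered samples are different animals, and their deviations correlated at 0.149 and -0.045, so the replicate block is only an alternative. The cause of these changes was not tested. Only 2 intact mice limit the precision, and the scaling to library size cannot show a change shared by most genes.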
